A study of Mus musculus with 8 samples.

Results

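Gene expression was measured by RNA sequencing in RAW264.7, a macrophage-like line from a mouse tumour induced by Abelson leukaemia virus, and the 9 genes described here encode costimulatory molecules and markers of maturation of antigen-presenting cells. They were taken by name from the table of 10639 genes: Cd40, Cd80, Cd86, Cd83, Cd274, Icosl, Tnfsf9, Icam1 and Fscn1. All 9 were in the table, and all 9 passed the filter on low values. Cells of wild-type genotype were untreated, were given lipopolysaccharide (LPS) at 50 ng/mL, were given antibodies against CD36 at a dilution of 1 in 100, or were given LPS and the antibodies together, with 2 libraries in each group. The labels also carry the name 10x Genomics, but they describe libraries made from extracted total RNA, and with a single value for each gene in a library the table was taken as bulk RNA sequencing. The treated groups were taken at 12 h. The labels of the combined treatment repeat the time but give no dose, and those of the untreated cells give no time. No group received an antibody of another specificity, so binding to CD36 and other effects of adding antibody cannot be told apart. The labels do not say whether replicates came from separate cultures, so the p-values take in no more than the spread of these libraries, and that spread may be technical.

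Antigen-presenting cells give T cells a second signal beside the antigen through ligands on their surface. CD80 and CD86 bind the activating receptor CD28 and the inhibitory receptor CTLA-4, ICOS ligand binds ICOS, and PD-L1, the product of Cd274, binds the inhibitory receptor PD-1. CD40 is a receptor of the TNF receptor family that T cells engage with CD40 ligand, and Tnfsf9 encodes a TNF family ligand for the costimulatory receptor CD137. ICAM-1 holds the contact between the cells through the integrin LFA-1, CD83 stabilises MHC class II and CD86 at the surface of mature dendritic cells, and fascin (Fscn1) bundles actin in their processes. In macrophages and dendritic cells, LPS sensed by TLR4 induces many of these genes.

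Values are FPKM, fragments counted on a gene relative to its transcript length and to the depth of the library. The recovered depth was 47900000 to 71700000 reads per library. At that depth 3 reads in a transcript of 2000 bp, a floor that covers counting error only, equal an FPKM of 0.0209 to 0.0313. Replicates correlated at 0.966 (anti-CD36) to 0.997 (LPS) across genes, which are not independent replicates, and the anti-CD36 replicates differed most, with an SD of their log2 difference of 0.451 against 0.137 to 0.220 in the other groups. Mitochondrial genes held 15.7% of the listed FPKM in anti-CD36 replicate 1 and 3.28% to 6.62% in the other 7 libraries. Of 12 macrophage markers 11 were in the table, with the lysozyme gene Lyz2 at an FPKM of 1444 to 3747. With LPS, 3 of the 11 were called higher and 3 lower. Adgre1 went from 13.8 and 12.2 untreated to 82.8 and 84.1 with LPS, and Csf1r from 311 and 306 to 102 and 104. Of 10 B cell markers 2 were in the table, Ighm at 67.8 to 110 and Cd79b at or below 1.46. Of 14 markers of dendritic cells, in which Fscn1, Cd83 and Cd86 are also used as markers, 4 were listed (Zbtb46, Irf4, Irf8 and Itgax). Their summed FPKM was 18.8 to 20.1 untreated, 15.5 to 17.1 with anti-CD36, 58.9 to 63.4 with LPS and 61.5 to 69.3 with both, nearly all of it from Irf8, while Itgax and Zbtb46 stayed at or below 1.37 and 0.800. The part of that shift in the results was not tested.

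LPS raised all 9 genes, by 1.62-fold for Icam1 to 46.9-fold for Cd40 as ratios of mean FPKM. Without the antibodies, 9 of 9 were called higher (limma, Benjamini-Hochberg adjusted p under 0.05), where 17% of the 10289 tested genes were. In cells that had the antibodies, LPS again raised 9 of 9, against 15.4% of tested genes. Cd86, Fscn1 and Cd274 were under an FPKM of 1 in every library without LPS. They passed the filter only through the groups with LPS, so their calls and their part in the medians are no separate support. With no filter on low values they stayed called higher in both comparisons. The median difference of the 9 on the log2(FPKM + 1) scale was 1.96 without and 1.73 with the antibodies, beside -0.19 and -0.15 over all tested genes. Scaling with size factors moved the medians over all genes to 0.00 and 0.01, and all 9 stayed called higher in both comparisons under each scaling. FPKM counts RNA of the whole culture, so more RNA per cell and more cells with the RNA cannot be told apart.

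**Figure D1:**
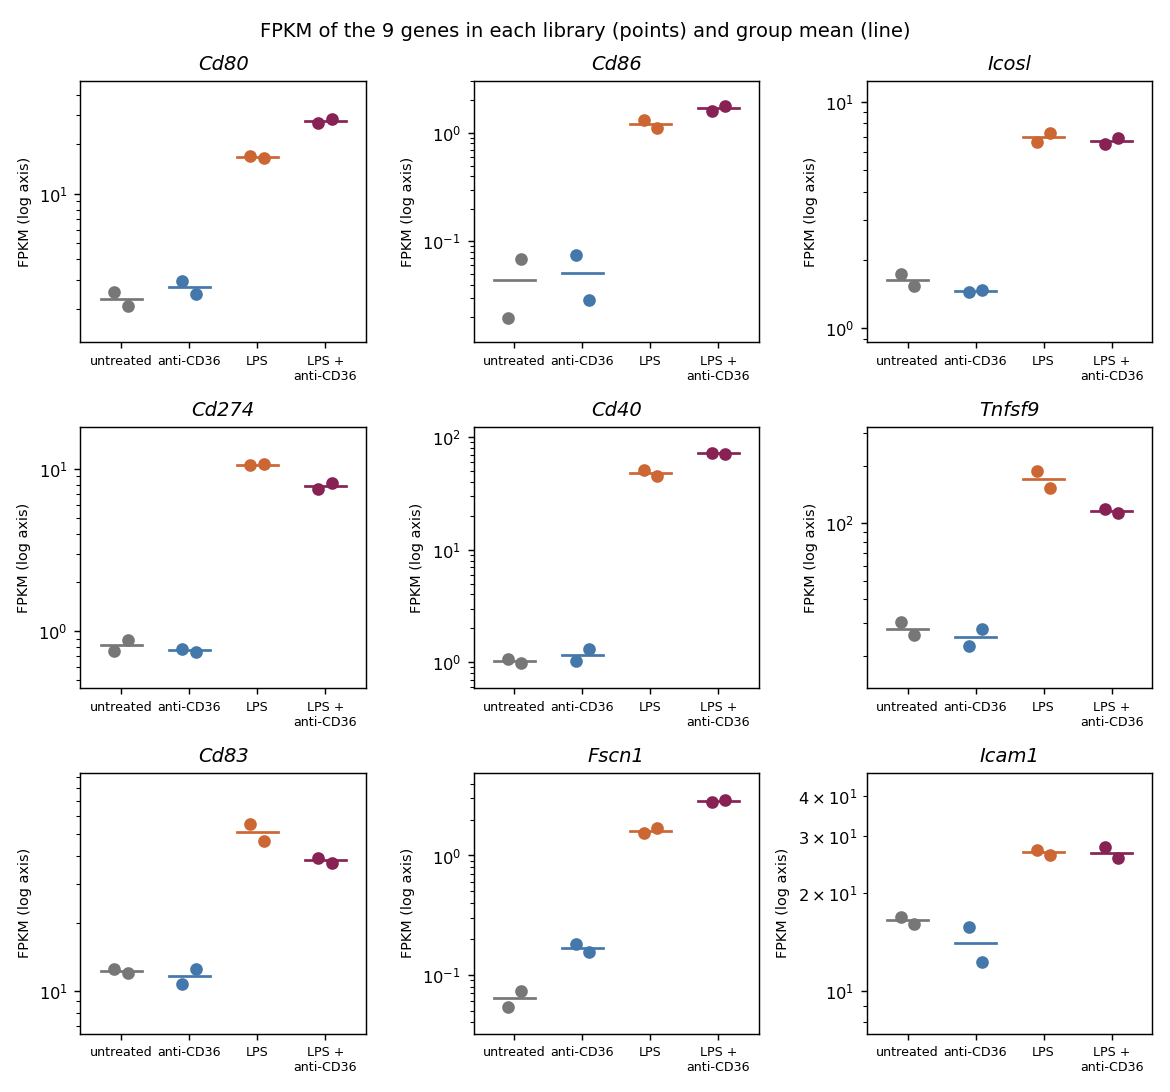
FPKM of each of the 9 genes (log axis, a separate scale in each panel) in untreated cells and with anti-CD36, LPS or both; points are single libraries and lines the group means of 2. All 9 genes lie higher in both groups with LPS, and among those groups Cd80, Cd40, Cd86 and Fscn1 lie higher and Cd83, Cd274 and Tnfsf9 lower where the antibodies were present.

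The ligands of CD28 were unequal in level. Cd80 (chromosome 16, 38455561 to 38496335, plus strand, GRCm38, protein-coding) had an FPKM of 2.53 and 2.09 in the untreated libraries, 2.96 and 2.45 with anti-CD36, 17.0 and 16.6 with LPS, and 27.0 and 28.5 with both. The groups with and without LPS did not overlap, and the combination lay above LPS alone in both replicates. LPS raised it by 2.43 ± 0.12 (SE) on the log2(FPKM + 1) scale (limma adjusted p = 8.5e-06). Cd86 (chromosome 16, 36603869 to 36666081, minus strand) was near the floor without LPS. It stood at 0.0196 and 0.0686 untreated and 0.0741 and 0.0286 with anti-CD36, from 4, 18, 13 and 6 reads. The exact 95% Poisson intervals of the untreated read numbers, 1.09 to 10.2 and 10.7 to 28.4, cover counting error only. With LPS it was at 1.32 and 1.12, and with both at 1.60 and 1.77. The LPS difference was 1.09 ± 0.09 (limma adjusted p = 8.9e-05), and its 27.6-fold ratio of means ran from 16.3 to 67.1 over the pairs of libraries, a width set by the few untreated reads. Per length, Cd80 exceeded Cd86 in every library, by 12.9- and 14.9-fold with LPS and by 16.9- and 16.1-fold with both.

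Icosl, the ICOS ligand gene (chromosome 10, 78069302 to 78083913, plus strand), went from 1.74 and 1.54 untreated to 6.65 and 7.24 with LPS, and was at 1.45 and 1.47 with anti-CD36 and 6.51 and 6.93 with both. Its LPS difference was 1.59 ± 0.10 (limma adjusted p = 2.3e-05). The LPS and combination values overlapped. Cd274 (chromosome 19, 29367455 to 29388095, plus strand), which codes for the inhibitory ligand PD-L1, stood at 0.759 and 0.886 untreated, 0.778 and 0.746 with anti-CD36, 10.6 and 10.7 with LPS, and 7.54 and 8.26 with both. Both combination libraries lay below both LPS libraries. The LPS rise was 13.0-fold in mean FPKM, or 2.68 ± 0.10 on the log2 scale (limma adjusted p = 2.2e-06).

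Among the TNF family genes, Cd40 (chromosome 2, 165055627 to 165072948, plus strand) showed the largest LPS response of the 9. It was at 1.07 and 0.987 untreated, 1.02 and 1.31 with anti-CD36, 51.4 and 45.2 with LPS, and 72.5 and 71.3 with both. The LPS difference was 4.60 ± 0.12 (limma adjusted p = 3.6e-07), and the combination libraries lay above the LPS libraries without overlap. Tnfsf9, which encodes the CD137 ligand (chromosome 17, 57105325 to 57107757, plus strand), was the most abundant of the 9 in all 4 groups. It stood at 30.2 and 25.8 untreated, 22.8 and 27.8 with anti-CD36, 189 and 154 with LPS, and 120 and 113 with both. Both combination values were under the lower LPS value. The LPS difference was 2.57 ± 0.16 (limma adjusted p = 2.0e-05).

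Of the maturation markers, Cd83 (chromosome 13, 43784775 to 43803132, plus strand) was already abundant without LPS, at 12.6 and 12.1 untreated and 10.8 and 12.6 with anti-CD36. It reached 55.2 and 46.7 with LPS and 39.2 and 37.2 with both, so the combination again lay below LPS. The LPS difference was 1.96 ± 0.13 (limma adjusted p = 2.5e-05). Fscn1 (chromosome 5, 142960343 to 142973185, plus strand) was at 0.0537 and 0.0741 untreated, from 9 and 16 reads, at 0.180 and 0.156 with anti-CD36, from 26 and 27 reads, at 1.54 and 1.69 with LPS, and at 2.82 and 2.90 with both. These 4 groups did not overlap and stood in that order. The LPS difference was 1.30 ± 0.09 (limma adjusted p = 2.8e-05). The adhesion ligand gene Icam1 (chromosome 9, 21015985 to 21028817, plus strand) had the smallest response. It went from 17.0 and 16.1 to 27.2 and 26.3 with LPS, a difference of 0.66 ± 0.13 (limma adjusted p = 0.0042), and was at 15.7 and 12.3 with anti-CD36 and 27.7 and 25.7 with both. All 9 genes are protein-coding, and all positions are from GENCODE M21 on GRCm38. Cd274, Tnfsf9 and Icam1 each overlap an annotated noncoding gene on the other strand, and since strand use was not given, reads of the 2 cannot be told apart.

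**Figure D2:**
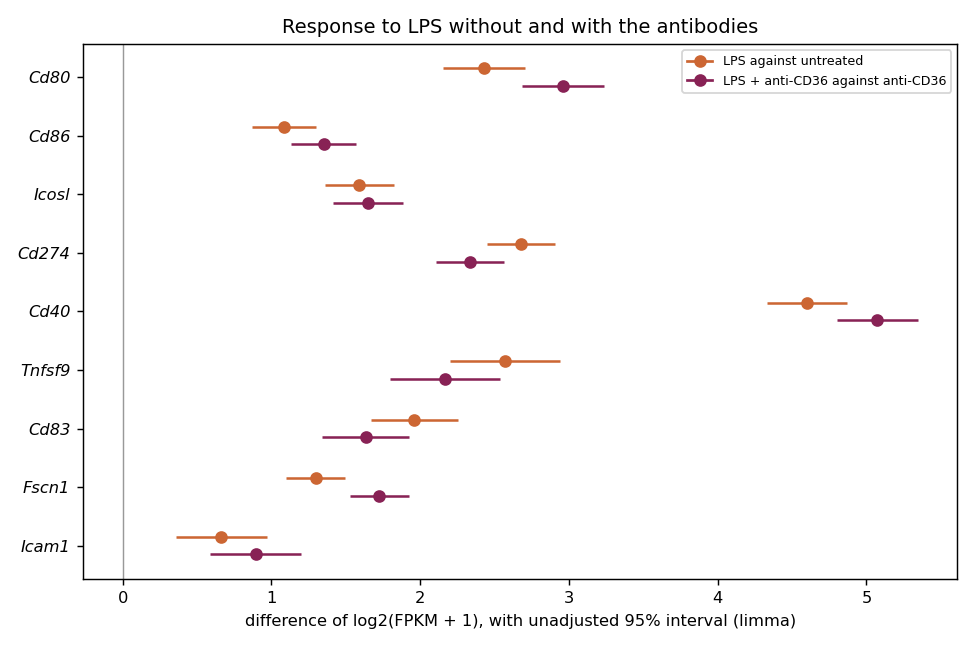
Difference of log2(FPKM + 1) between cells with and without LPS for each gene, in the absence (upper point) and presence (lower point) of anti-CD36, with the unadjusted 95% interval from limma; all 18 points are called. Cd40 has the largest difference in both (4.60 and 5.07) and Icam1 the smallest (0.66 and 0.89).

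The order of levels changed with LPS. In untreated cells Tnfsf9 led, followed by Icam1, Cd83, Cd80, Icosl, Cd40, Cd274, Fscn1 and Cd86, and only Fscn1 and Cd86 overlapped as neighbours. With LPS, Cd40 moved from the sixth to the third place, where it overlapped Cd83 above it (48.3 ± 4.40 against 51.0 ± 5.97, mean FPKM ± SD, n = 2). With both treatments Cd40 was in the second place at 71.9 ± 0.867, clear of Cd83 at 38.2 ± 1.46, and Cd80 (27.8 ± 1.08) overlapped Icam1 (26.7 ± 1.45). With anti-CD36 alone the order was that of untreated cells, with Icam1 and Cd83 overlapping.

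The combination was then compared with LPS alone, with the LPS dose of the combination not given in its labels. Cd80 rose by 1.65-fold in mean FPKM (log2 difference 0.69 ± 0.12, limma adjusted p = 0.0399) and Fscn1 by 1.77-fold (0.56 ± 0.09, limma adjusted p = 0.0312). These were the 2 of 9 genes called higher, where 0.36% of tested genes were, and 0 of 9 were called lower, where 1.42% were. Cd40 just missed the threshold at 1.49-fold (0.57 ± 0.12, limma adjusted p = 0.0598), and Cd86 had a ratio of 1.38 (0.28 ± 0.09, limma adjusted p = 0.169). Tnfsf9 had a ratio of 0.679 (-0.55 ± 0.16, limma adjusted p = 0.120), Cd274 of 0.741 (-0.39 ± 0.10, limma adjusted p = 0.0910) and Cd83 of 0.750 (-0.40 ± 0.13, limma adjusted p = 0.145). The replicate ranges of these 7 genes did not overlap, 4 of 9 higher and 3 of 9 lower, where 28.5% and 35.6% of tested genes were apart in the same way, so the share of lower genes was near that of all genes. In either direction 2 of 9 were called, against 1.78% of tested genes.

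Icosl and Icam1 overlapped between LPS and the combination. Their ratios were 0.967 and 0.999, and the unadjusted 95% intervals of the log2 difference ran from -0.27 to 0.19 for Icosl and from -0.31 to 0.31 for Icam1.

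The calls in LPS-treated cells depended on which libraries set the spread. The fit of all 8 libraries takes in the anti-CD36 pair, which differed most between its replicates. In a fit on the LPS and combination libraries alone, 6 of the 9 genes were called. Cd80 (adjusted p = 0.00042), Cd40 (0.0016) and Fscn1 (0.0029) were then higher and Tnfsf9 (0.0049), Cd83 (0.0129) and Cd274 (0.0150) lower, all by limma, and Cd86 was not called (0.0696). In that fit 2307 of 10289 tested genes were called, against 183 in the fit of all libraries. Without anti-CD36 replicate 1 or 2 the same 6 were called, among 1427 of 10260 and 1450 of 10243 tested genes. The calls of Cd80 and Fscn1 were lost with a replicate block (limma adjusted p = 0.0637 and 0.0625), where 46 of 10289 tested genes were called. With a pseudocount of 0.1 they were lost too (limma adjusted p = 0.0632 and 0.0915), where 130 were called. Without any 1 of the other 6 libraries they were also lost, but each such fit leaves 1 library in a group. Those fits called fewer of all tested genes than the 183, so the losses were not particular to these 2 genes. Cd80 was also lost after quantile normalization (0.0621). Over the 17 alternatives, or 16 for Fscn1, which a stricter filter removed, the difference stayed at 0.59 to 0.74 for Cd80, 0.25 to 0.79 for Fscn1, 0.48 to 0.66 for Cd40, -0.70 to -0.40 for Tnfsf9, -0.45 to -0.28 for Cd274 and -0.52 to -0.28 for Cd83, each on its own log scale.

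**Figure D3:**
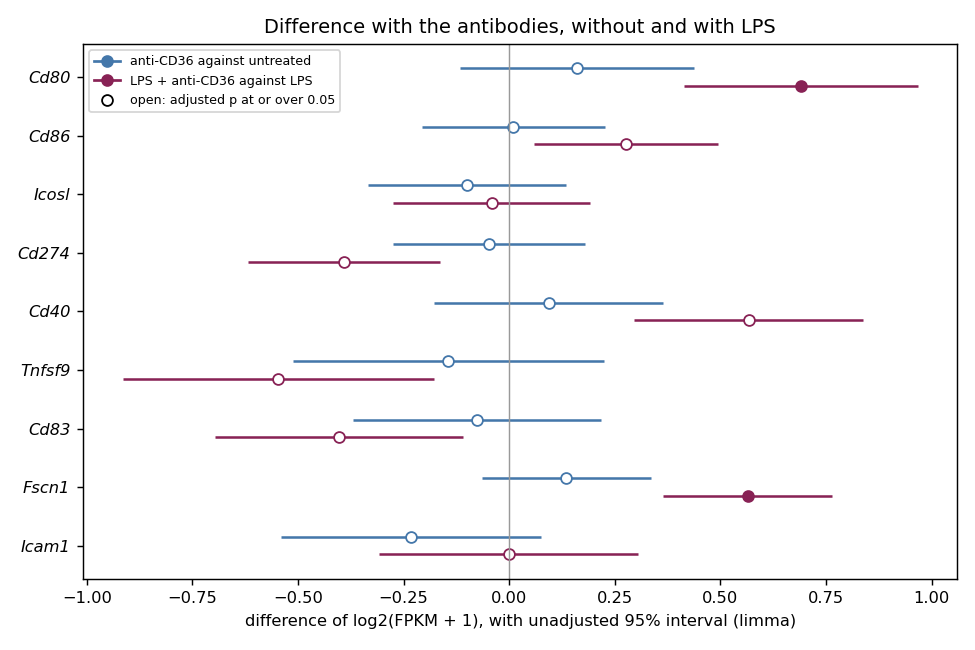
Difference of log2(FPKM + 1) between cells with and without anti-CD36 for each gene, in the absence (upper point) and presence (lower point) of LPS, with the unadjusted 95% interval from limma; filled points are called at an adjusted p under 0.05. With LPS, Cd80 (0.69) and Fscn1 (0.56) are filled, and the intervals of Cd40 and Cd86 lie above 0 and those of Tnfsf9, Cd83 and Cd274 below it.

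Without LPS the antibodies moved none of the 9 genes past the threshold (0 of 9 by limma, with 0 of 9 also at an unadjusted p under 0.05), where 13.7% of tested genes were called and 3210 of 10289 had an unadjusted p under 0.05. The log2 differences ran from -0.23 for Icam1 (interval -0.54 to 0.07) to 0.16 for Cd80 (-0.12 to 0.44). Fscn1 was 2.63 times higher in mean FPKM and its replicates did not overlap, but the values rest on 9 to 27 reads, and the difference was 0.13 ± 0.09 (limma adjusted p = 0.330), or 0.71 with a pseudocount of 0.1 (limma adjusted p = 0.0538). Icam1 and Icosl were the other genes whose ranges did not overlap, with ratios of 0.848 and 0.891. Ranges were apart in 52.6% of tested genes. Without anti-CD36 replicate 1, the library with the high mitochondrial share, the Icam1 difference was -0.40, and without replicate 2 it was -0.07. Each of these fits leaves 1 library in the anti-CD36 group.

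The interaction compares the LPS effect with the antibodies to that without them. None of the 9 was called by limma, where 0.00972% of tested genes were, a single gene that was named after its value was seen (Akap12, a kinase scaffold). At an unadjusted p under 0.05 there were 4 of the 9 and 1396 of all tested genes. The interaction was 0.53 ± 0.17 for Cd80 (limma adjusted p = 0.295), 0.47 ± 0.16 for Cd40 (0.311), 0.43 ± 0.12 for Fscn1 (0.277) and -0.34 ± 0.14 for Cd274 (0.350), all by limma. The Fscn1 value depended on the pseudocount, and was 0.08 with a pseudocount of 0.1 (limma adjusted p = 0.935). As a ratio of mean FPKM, LPS raised Fscn1 by 25.3-fold without and 17.0-fold with the antibodies, the opposite order. So a difference between the antibody effects with and without LPS was not shown for any of the 9.

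Ratios between genes in 1 library are not moved by a single scaling factor for that library. They were chosen after the values were seen and are given as a description. Cd80 over Cd274 was 3.34 and 2.36 in untreated cells and 3.81 and 3.28 with anti-CD36. With LPS it was 1.60 and 1.55, since Cd274 had the larger fold change of the 2. With both it was 3.58 and 3.46, within the range of the libraries without LPS. Cd40 over Cd83 went from 0.0852 and 0.0818 untreated and 0.0950 and 0.105 with anti-CD36 to 0.932 and 0.967 with LPS and 1.85 and 1.92 with both. Tnfsf9 over Cd80 was 11.9 and 12.3 untreated, 7.68 and 11.3 with anti-CD36, 11.1 and 9.25 with LPS, and 4.43 and 3.97 with both. In each of the 3 ratios the combination libraries lay apart from the LPS libraries, which the choice of the pairs had fixed.

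**Figure D4:**
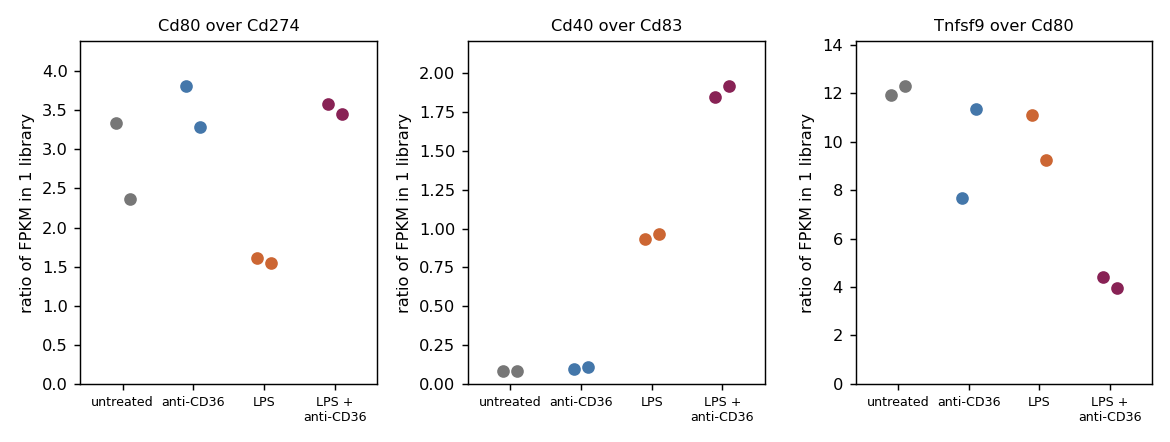
Ratio of FPKM between a pair of genes within 1 library (linear axis from 0), for Cd80 over Cd274, Cd40 over Cd83 and Tnfsf9 over Cd80; each point is 1 library. Cd80 over Cd274 is 1.60 and 1.55 with LPS and 3.58 and 3.46 with both, and Cd40 over Cd83 is highest with both, at 1.85 and 1.92.

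The sequence before the transcription start is shown for Cd80, which was called higher in the combination than with LPS, and for Icam1, whose values overlapped there. The sequences are from RefSeq on GRCm38.p6, which held 5 of the 9 genes (Cd80, Cd274, Icosl, Icam1 and Fscn1), and each is the 250 bases before the start, on the plus strand. Capitals mark matches on either strand to GGANNTTCC, a kB-like motif, TGANTCA, an AP-1-like motif, TTCNNNGAA, a GAS-like motif, or an ISRE-like motif (GAAA, any 2 bases, GAAA), where N is any base.
Cd80 (chr16:38458683-38458932): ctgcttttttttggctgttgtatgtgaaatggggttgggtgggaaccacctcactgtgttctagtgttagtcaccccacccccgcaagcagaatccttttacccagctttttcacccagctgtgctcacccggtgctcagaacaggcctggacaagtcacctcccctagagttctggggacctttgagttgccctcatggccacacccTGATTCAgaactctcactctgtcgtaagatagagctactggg
Icam1 (chr9:21015690-21015939): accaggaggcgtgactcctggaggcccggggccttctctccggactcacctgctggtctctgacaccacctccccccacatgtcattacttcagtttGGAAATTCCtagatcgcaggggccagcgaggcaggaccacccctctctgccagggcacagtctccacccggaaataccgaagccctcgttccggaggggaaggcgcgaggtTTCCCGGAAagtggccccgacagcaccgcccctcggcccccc
Cd80 held the AP-1-like match TGATTCA from base -42 to -36 before the start, and this RefSeq start lies inside the gene as GENCODE M21 gives it, downstream of another first exon. Icam1 held the kB-like match GGAAATTCC from -153 to -145 and the GAS-like match TTCCCGGAA from -42 to -34, and no 2 matches overlapped. Of 32851 RefSeq windows of the same length, 6.75% held the AP-1-like motif, 3.59% the kB-like, 7.02% the GAS-like and 2.98% the ISRE-like one. The windows of Cd274, Icosl and Fscn1 held none of these letters. A match is a description of the sequence and shows no binding.

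The genes with the profile nearest to each of the 9 were found among all tested genes by the Euclidean distance between log2(FPKM + 1) values of the 8 libraries, each centred on its mean. They were chosen by this distance, so their likeness to the 9 is a description and no separate support. Several, such as Hdc, Batf and Cd36, had a mean FPKM under 1 in both groups without LPS and passed the filter only through the groups with it. Nearest to Cd40 were Hdc, the histidine decarboxylase (distance 0.274), Upp1, a uridine phosphorylase (0.331), and Lta, lymphotoxin alpha (0.587). Nearest to Cd80 were the transcription factor gene Batf (0.281), Cd36 itself (0.346) and Marcksl1 (0.427). Cd36 went from a mean FPKM of 0.0783 untreated to 5.14 with LPS and 8.53 with both, beside 0.196 with anti-CD36 alone. Nearest to Fscn1 were Tspoap1 (0.234), Clu (0.248) and Akr1b8 (0.297), and nearest to Cd86 were Dnmt3l (0.169), the kinase gene Src (0.185) and Rtn2 (0.205).

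Cd274 was nearest to Malt1, a paracaspase of NF-kB signalling (0.272), the nuclear receptor gene Nr4a3 (0.372) and Calcrl (0.414). Tnfsf9 was nearest to Mcoln2 (0.254), Ddit3 (0.428) and Sqstm1 (0.439), and Cd83 to Acp5 (0.330), Hbegf (0.407) and Fnbp1l (0.428). Icosl was nearest to the AP-1 gene Fosl1 (0.197), the arginase gene Arg2 (0.200) and Apold1 (0.255), and Icam1 to Zbtb7b (0.131), Tmem39a (0.189) and Tm9sf4 (0.206). Among the 9 themselves, Cd274 and Tnfsf9 were the closest pair, at 0.486.

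Related genes were followed in 8 lists with 109 tested genes. Part of most lists was missing from the table. It held 9 of 25 costimulatory ligands, 8 of 16 receptors, 12 of 16 adhesion genes and 10 of 21 dendritic cell maturation genes. It also held 16 of 25 MHC class II genes, 16 of 17 of PD-L1 control, 20 of 25 of actin bundling and 21 of 21 of CD40 signalling. With LPS, 45 of the 109 were called higher and 31 lower, where 17% and 37.5% of all tested genes were, and the counts of each list stand against these shares. Among the genes named below, Tnfsf15, Ccl22, Nudt17 and Myc had a mean FPKM under 1 in both groups without LPS. Havcr2, Icos, Icam2 and H2-DMa had such a mean in both groups with LPS. Each passed the filter only through the groups where it was high, so its place in the counts is no separate support. Of 9 tested costimulatory ligands outside the set, 4 rose with LPS and 2 fell (median log2 difference 0.31, against -0.19 over all tested genes). Tnfsf15, a TNF family ligand, rose by 3.91 and Lgals9, galectin-9, by 2.67, while Cd276, a B7 family gene, fell by 2.20 and Cd24a by 2.91. Of 7 tested genes for receptors of the members and for checkpoint receptors, 2 rose and 4 fell (median -0.94). Pdcd1, the receptor of PD-L1, rose from a mean FPKM of 7.33 ± 0.118 to 30.3 ± 1.55 (SD, n = 2), while the inhibitory receptor gene Havcr2 fell from 4.20 to 0.117, Sirpa from 70.6 to 26.4 and Icos from 1.18 to 0.0791.

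Of 21 tested genes of CD40 signalling, 13 rose with LPS and 3 fell (median 1.01). The adaptor gene Traf1 rose by 2.63 and the kinase gene Ikbke by 2.38. Bcl2a1b (3.52) and Bcl2a1d (3.51) rose too, but they are near-identical copies whose reads could be split by the counting. Of 10 tested genes of dendritic cell maturation and migration, 7 rose and 2 fell (median 1.69), among them the chemokines Ccl5 (9.20) and Ccl22 (6.59), with Marcksl1 (2.48) and Nudt17 (2.18). Of 12 tested adhesion genes of the T cell contact, 6 rose and 3 fell (median 0.26). Itgal, a subunit of the ICAM-1 receptor LFA-1, rose by 1.44 and Cd44 by 1.33, while Itga4 fell by 1.28 and Icam2 by 1.24.

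Of 14 tested genes of MHC class II presentation, 2 rose with LPS and 8 fell (median -0.55). The protease gene Lgmn fell from 193 ± 8.89 to 70.3 ± 0.569 and Ifi30, a thiol reductase, from 187 ± 23.0 to 73.8 ± 2.02 (mean FPKM ± SD, n = 2). H2-DMa, a subunit of the peptide exchange factor, fell by 1.11 and the protease gene Ctsl rose by 1.13 on the log2 scale. Of 16 tested genes of PD-L1 control, 6 rose and 3 fell (median 0.07), with Myc at 2.38, Hif1a at 1.02, Cops5 at 0.85 and the interferon gamma receptor gene Ifngr1 at -1.14. Of 20 tested genes of actin bundling and filopodia, 5 rose and 6 fell (median -0.18), a median close to the -0.19 of all tested genes, with the bundling protein gene Pls3 at 1.04, Coro1a at 1.06, Actn4 at -0.80 and Ezr at -1.32.

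**Figure D5:**
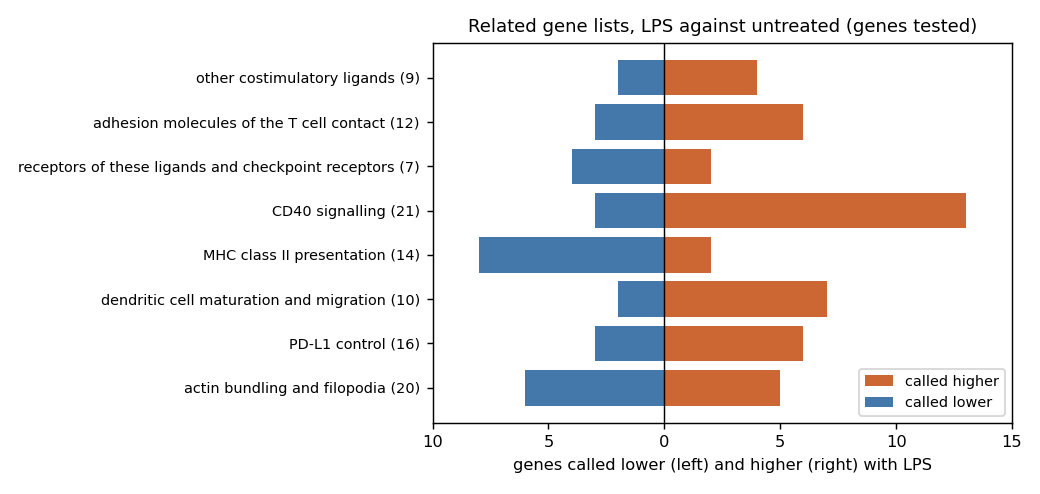
Number of genes called lower (left, blue) and higher (right, orange) with LPS against untreated cells in 8 lists of related genes, with the number tested in brackets. CD40 signalling has 13 higher and 3 lower of 21, and MHC class II presentation has 2 higher and 8 lower of 14.

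In the combination against LPS, 3 of the 109 list genes were called (2.75%), where 1.78% of all tested genes were. The mean FPKM of Ccl22 went from 121 ± 3.15 to 278 ± 0.630 (SD, n = 2), a rise of 1.19 ± 0.14 on the log2 scale (limma adjusted p = 0.0197). Rel, the NF-kB subunit c-Rel, fell from 42.9 ± 0.0582 to 23.6 ± 2.58 (-0.84 ± 0.14, limma adjusted p = 0.0399) and Myc from 4.81 ± 1.37 to 2.14 ± 0.316 (-0.87 ± 0.16, limma adjusted p = 0.0489). All 3 calls were kept with a pseudocount of 5, size factors or no filter, and on only the groups compared, where 2307 of 10289 tested genes were called. They were lost with a pseudocount of 0.1, where 130 were called. Those of Rel and Myc were also lost with a replicate block (46 called) and after quantile normalization (149 called). Without any 1 of the LPS or combination libraries all 3 were lost, and Rel and Myc also without either untreated library. Each of these left-out fits leaves 1 library in a group and called fewer of all tested genes than the fit of all libraries. Myc was not called without the trend either. With anti-CD36 alone, 14 of the 109 list genes were called (12.8%), 3 higher and 11 lower, a share close to the 13.7% of all tested genes. Lgals9 (0.52), Nfyb (0.53) and Pls3 (0.48) rose, and Vsir (-0.50), Nectin2 (-0.43), Traf3 (-0.52), Traf6 (-0.48), Tnfaip3 (-0.45), Rfx5 (-0.61), Cmtm4 (-0.69), Stat3 (-0.64), Myo10 (-0.82), Wasf2 (-0.68) and Diaph1 (-0.48) fell. In a fit on only the untreated and anti-CD36 libraries, 0 of all tested genes were called by limma (2045 at an unadjusted p under 0.05), so none of these 14 calls was kept there.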

How the data were processed

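The values the authors deposited are FPKM, in a column for each library. HISAT2 2.0.5 and 2 builds, mm10 and hg38, are named in the submitters' processing notes, while the roles of the builds, the counter and the use of strand are not given in the sources used here. None of the values was 0, so genes at 0 in a library were not analysed here. Depth was recovered from 134 genes under 400 bp, and 129 or 130 of them in each library were within 0.02 of a whole number of reads. At these depths all 9 genes gave whole reads with their GENCODE M21 union exon length.

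Differences were tested on log2(FPKM + 1) with limma 3.58.1 in R 4.3.3 in 1 model of 4 group means and 8 libraries (4 residual degrees of freedom, trended empirical Bayes), for the 10289 genes that reached an FPKM of 1 in 2 or more libraries, with Benjamini-Hochberg adjustment over all of them and a threshold of 0.05. This scale understates changes of low genes. Intervals are 95%.

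The members and lists were chosen with earlier results of these data known. Named list genes are up to 4 called genes a list with the largest difference, and for each of the 9 the 3 nearest profiles, without predicted genes and pseudogenes. Alternatives were 2 pseudocounts, 2 filters, 2 scalings, no trend, only the groups compared, a replicate block and each library left out. No column was unused.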

Additional observations from a re-analysis of the deposited data

How the results depend on the processing

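The 2 comparisons with and without LPS each kept direction and call in all 150 recomputed differences of the 9 genes. The comparison of the combination with LPS kept both in 112 of 150, and its count of called genes among the 9, 2 as reported, was 6 on only the groups compared, 4 with a pseudocount of 5, 3 with size factors, 1 after quantile normalization and with a mean FPKM of at least 5 (6 of the 9 tested), 0 with a pseudocount of 0.1 and with a replicate block, and 0 to 6 with 1 library left out. For anti-CD36 against untreated it was 0 to 1 with 1 library left out.

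Over all genes, the combination against LPS had 183 calls, 88 with a mean FPKM of at least 5 (fewer genes tested), 2307 on only the groups compared, 46 with the replicate block and 1 to 1450 with 1 library left out. Anti-CD36 against untreated had 1405, then 811, 0 (2045 at an unadjusted p under 0.05), 863 and 0 to 3726 in the same order. LPS against untreated had 5614, and 3665 with a mean FPKM of at least 5 and 3583 to 7080 with 1 library left out. The combination against anti-CD36 had 4844, and likewise 3098 and 3214 to 6374. The interaction had 1, with 0 at a pseudocount of 0.1, 6 at a pseudocount of 5 and 1 to 616 with 1 library left out. The combination against LPS had 229 calls over all genes with a pseudocount of 5 and 130 with a pseudocount of 0.1. It had 204 with size factors and 149 after quantile normalization. The cause was not tested. As deposited, 31.2%, 22.3%, 20.2% and 32.6% of calls were higher with LPS, with anti-CD36, in the combination against LPS and against anti-CD36, and 49.2%, 41.5%, 28.9% and 50.1% with size factors.

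Uncalled differences that changed sign were Cd83 with anti-CD36 alone (0.0167 with size factors, 0.0246 after quantile normalization, -0.178 to 0.0255 with 1 library left out), Cd274 (0.0337 after quantile normalization, -0.0980 to 0.00235), Cd40 (-0.00349 to 0.191) and Cd86 (-0.0238 to 0.0438). In the combination against LPS they were Icam1 (0.0475 with size factors, -0.0547 to 0.0518) and Icosl (0.00311 with size factors, 0.0271 after quantile normalization, -0.0954 to 0.0129). Nothing in the labels pairs the libraries by replicate number, and whether they were paired is not known. Correlations of replicate differences across genes ran from -0.645 (untreated and anti-CD36) to 0.530 (untreated and the combination), and 0.00541 for LPS and the combination. Cd86 and Fscn1 without LPS rest on 4 to 27 reads. There the pseudocount also matters, since the Fscn1 difference with anti-CD36 had an adjusted p of 0.330 with a pseudocount of 1 and 0.0538 with 0.1 (limma).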
